A study of Canis lupus familiaris with 6 samples.

Results

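The genes described here share the symbols of cell division and DNA replication genes, and most of them act in those processes. They were taken from the annotation of a canine Agilent array by their symbols (the MCM, ORC, GINS, RFC, cyclin, CDC, CDK, E2F, PLK, aurora, BUB, CHEK and CENP series together with PCNA, with the CDC42 series left out) and by no measured value, though the choice was made with earlier results of these data known. They comprised 140 of 43603 probes and 97 of 12000 genes with a symbol in the RefSeq table for dog, and 31 of the 97 genes had more than 1 probe. For each gene the brightest probe, called its main probe, was followed. No probe with the symbol MKI67, TOP2A, CCNB1, CDK4, AURKA or BUB1 was found.

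The RNA came from 3 canine mammary tumor cell lines. P114 derives from an anaplastic cancer, CMT-U27 from a simple carcinoma and CMT-U309 from a spindle cell tumor. Each line was grown alone (monoculture) or with myeloid-derived suppressor cells (MDSCs), for at least 72 h by the labels and for a shorter time by the study's methods (co-culture). By the methods the MDSCs came from the blood of healthy dogs and were held in inserts apart from the tumor cells. Co-culture and monoculture RNA of a line were hybridized together on 2 two-colour arrays, with co-culture RNA in Cy5 on the first and in Cy3 on the second, which gave 6 arrays and 1 pair of RNAs per line.

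Cells prepare for replication by loading the MCM helicase on origins with the ORC proteins and CDC6, and fire the origins with CDC7, CDC45 and the GINS complex. PCNA is the sliding clamp of the DNA polymerases and the RFC proteins load it. Cyclins switch on the CDK kinases, E2F factors turn on S-phase genes, CDC25 phosphatases free the CDKs from inhibition, and PLK1, AURKB, BUB1B and CDC20 act at mitosis. RNA of these genes is commonly higher in fast-dividing populations, and an array of bulk RNA cannot tell apart more dividing cells and more RNA per dividing cell.

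The probes that carry the main results are given 5′ to 3′ as the scanner files list them, each 60 bases long, since the values below are the brightness of exactly these stretches. Positions are on canFam2, the build in the file headers. Those of PLK1 (chr6:25189452-25189765, minus strand), CDC20 (chr15:19815570-19815629, minus), CDC25B (chr24:20550889-20550948, minus) and MCM5 (chr10:31792789-31793773, minus) measured genes whose mean ratio of co-culture over monoculture was above 0 at an unadjusted p under 0.05, none of which passed after adjustment. Those of CDC45 (chr26:32777983-32780405, minus), CCND2 (chr27:43622535-43622594, minus) and CDK14 (chr14:19869064-19951847, plus) measured genes whose level separated the lines. The probes of PLK1, MCM5, CDC45 and CDK14 span 314, 985, 2423 and 82784 bases of the genome, which is longer than the probe, so each is listed across a gap such as an intron. The gene annotation of canFam2 was not used here, so exons are not numbered.
PLK1: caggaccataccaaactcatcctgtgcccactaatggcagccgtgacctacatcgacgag
CDC20: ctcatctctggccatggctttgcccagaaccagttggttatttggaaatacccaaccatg
CDC25B: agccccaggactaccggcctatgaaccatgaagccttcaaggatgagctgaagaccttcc
MCM5: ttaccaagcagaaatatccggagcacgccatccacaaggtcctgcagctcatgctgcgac
CDC45: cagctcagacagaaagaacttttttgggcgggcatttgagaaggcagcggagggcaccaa
CCND2: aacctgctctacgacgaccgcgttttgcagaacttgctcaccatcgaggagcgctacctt
CDK14: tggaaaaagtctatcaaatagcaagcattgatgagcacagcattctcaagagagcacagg

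The member genes were bright. The main probes of 83 of the 97 genes (85.6%) were flagged well above background in all 12 channels, against 58.9% of all genes. Epithelial and mesenchymal markers separated the lines: the main probes of EPCAM, KRT19 and CDH1 were brightest in CMT-U27 and those of VIM, CDH2, SPARC and COL1A1 were dimmest there. Of 10 myeloid and leukocyte markers chosen, 8 were found by symbol, and CD33 and CD14 were not. ITGAM and LYZ were well above background in none of the 12 channels, CSF1R in 2 and PTPRC in 3. CD68 and S100A8 were so in all 12, CYBB in 11 (5 of co-culture and 6 of monoculture) and S100A9 in 9 (4 and 5). The log2 summed signal of the myeloid list was 10.66 in both P114 RNAs, 13.73 in co-culture and 12.95 in monoculture of CMT-U27, and 10.58 and 10.56 in CMT-U309. In CMT-U27 this sum, mostly S100A8 (13.49 and 12.64), which epithelial cells also make, moved with the co-culture label, and its part in the results was not tested.

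The 2 arrays of a line carry the same RNAs with the dyes exchanged, so their ratios should run together. Over the 83 bright member genes, the log2 ratios (co-culture over monoculture) of both arrays correlated at r = 0.628 in CMT-U27 and 0.424 in CMT-U309, but at -0.155 in P114 (correlations across genes, which are not independent replicates). Over all 40704 probes measured on all 6 arrays the correlations were 0.262, -0.0925 and -0.393. The co-culture ratios of P114 thus differed between the dye orientations. On the first P114 array 65.4% of spots were well above background in co-culture and 55.2% in monoculture. On each of the other arrays the monoculture share was the larger, and the reason was not tested. Whether a dye label is crossed in P114 cannot be told from the files, in which case the sign of 1 of its arrays would turn. The co-culture results are therefore given with and without P114.

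**Figure D1:**
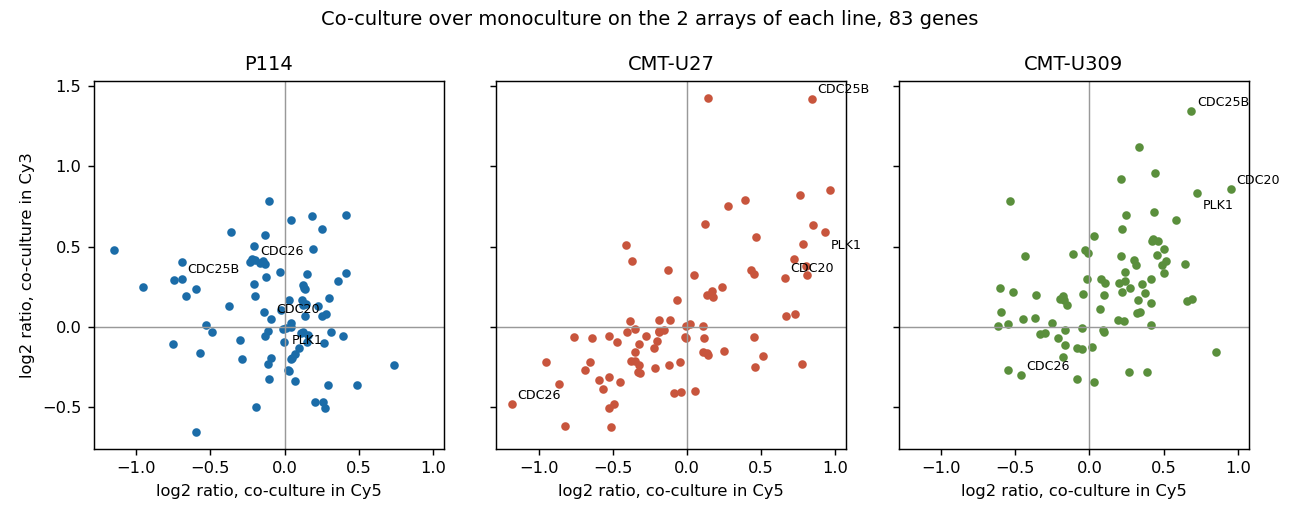
Log2 ratio of co-culture over monoculture for the 83 member genes well above background in all 12 channels, with the array carrying co-culture RNA in Cy5 on the x axis and the dye-swapped array on the y axis, 1 panel per cell line. The points rise together in CMT-U27 (r = 0.628) and CMT-U309 (0.424) and not in P114 (-0.155). PLK1, CDC20 and CDC25B lie in the upper right quadrant in CMT-U27 and CMT-U309.

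The level of the replication and division genes differed between the cell lines, and most of them were highest in CMT-U27. Levels are log2 values of the processed signal, with all channels brought to 1 median. Of the 97 genes, 63 had their highest mean level in CMT-U27, 19 in P114 and 15 in CMT-U309, whereas CMT-U27 was highest for 38.4% of all genes. A difference between lines was called where limma gave an adjusted p under 0.05 in the Cy5 values and again in the Cy3 values, with the same sign. By this rule 36 member genes were higher in CMT-U27 than in CMT-U309 (37.1%, against 21% of all genes) and 6 were lower (6.19%, against 12.5%). Against P114, 30 were higher in CMT-U27 (30.9%, against 17.2% of all genes) and 4 were lower (4.12%, against 10.6%).

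Between P114 and CMT-U309, 6 member genes were higher in P114 (6.19%, background 7.65%) and 4 were lower (4.12%, background 6.98%). In total 21 genes were higher in CMT-U27 than in both other lines (21.6%, background 12.8%). They were the replication genes CDC45, GINS1, GINS2, GINS4, MCM7, MCM8, RFC2, RFC4 and RFC5, the cyclins CCNA2, CCNB2, CCNB3 and CCNE2, the mitotic BUB1B, CENPP and CDC25C, and CHEK2, E2F8, PLK2, CDC5L and CDC37L1. CCND2, CDK14 and CDC26 were lower there than in both (background 6.37%). Among genes as bright as to be well above background in all 12 channels, 42.2% of the members and 27.6% of all genes were called higher in CMT-U27 than in CMT-U309. For CMT-U27 over P114 these shares were 34.9% and 21.3%. Each line was hybridized on a slide of its own, so line and slide cannot be told apart, and a line is represented by 1 co-culture and 1 monoculture RNA, which may be technical replicates of 1 population.

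**Figure D2:**
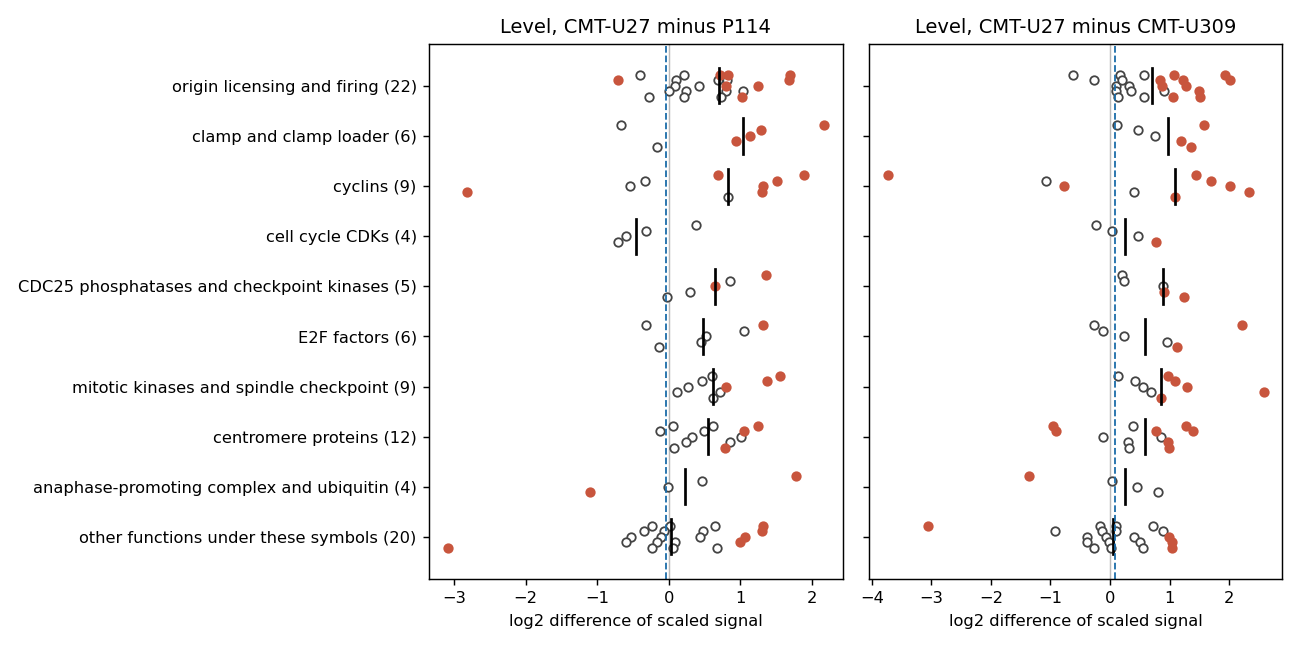
Log2 difference in level of each member gene's main probe, CMT-U27 minus P114 (left) and CMT-U27 minus CMT-U309 (right), in rows by role with the number of genes in brackets. Filled points were called, open points were not, black bars are the median of the role and the dashed line is the median of all genes (-0.04 and 0.08). The median of the clamp and clamp loader lies at 1.04 and 0.97, and that of the other functions at 0.04 and 0.06.

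By role, the medians of CMT-U27 minus P114 ran from -0.45 in the 4 cell cycle CDKs to 1.04 in the clamp and its loader. In the 22 genes of origin licensing and firing, the median difference was 0.71 for CMT-U27 minus P114 and 0.70 for CMT-U27 minus CMT-U309, and 7 and 10 genes were called higher in CMT-U27. CDC45, which travels with the helicase at the fork, measured 10.45 in co-culture and 10.49 in monoculture of CMT-U27. In P114 it measured 9.60 and 9.74, and in CMT-U309 8.64 and 8.28. The lines did not overlap, and the level in CMT-U27 was 1.74-fold that in P114 (limma, adjusted p = 0.0160) and 4.03-fold that in CMT-U309 (adjusted p = 8.54e-05). P114 also lay 2.31-fold above CMT-U309 (adjusted p = 0.00697).

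GINS2, a subunit of the GINS complex, measured 9.19 and 9.33 in CMT-U27, 8.25 and 8.20 in P114 and 7.90 and 7.61 in CMT-U309. Its level in CMT-U27 was 2.05-fold that in P114 (adjusted p = 0.00924) and 2.84-fold that in CMT-U309 (adjusted p = 0.000839). The helicase subunits were called in different pairs. MCM7 was higher in CMT-U27 than in P114 (1.64-fold, adjusted p = 0.0480) and CMT-U309 (2.10-fold, adjusted p = 0.00304), MCM2 and MCM6 than in CMT-U309 (2.33-fold and 2.07-fold, adjusted p = 0.00983 and 0.00510), and MCM3 than in P114 (1.78-fold, adjusted p = 0.0201). MCM5 differed by no more than 1.41-fold between any pair and was not called. CDC7, the kinase that fires origins, was not called against P114 (adjusted p = 0.932). For CDC6 the call against P114 depended on the probe, since the main probe was not called (1.62-fold higher in CMT-U27, adjusted p = 0.275) and the second was (2.71-fold, adjusted p = 0.0106).

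In the clamp and its loader the medians were 1.04 against P114 and 0.97 against CMT-U309. RFC4 measured 12.72 and 13.00 in co-culture and monoculture of CMT-U27, 10.90 and 10.47 in P114, and 11.24 and 11.33 in CMT-U309. Every CMT-U27 value lay above every value of the other lines, at 4.50-fold P114 (adjusted p = 6.69e-05) and 2.98-fold CMT-U309 (adjusted p = 0.000424). RFC2 and RFC5 were also higher in CMT-U27 than in both, and RFC3 than in P114, whereas RFC1, the large subunit, was called in no pair. PCNA ran otherwise. Its main probe was highest in P114, at 13.49 and 13.35, against 12.62 and 12.87 in CMT-U27 and 12.25 and 12.30 in CMT-U309, and P114 lay 2.21-fold above CMT-U309 (adjusted p = 0.0179). The second PCNA probe had its highest mean in CMT-U27 (9.87, against 9.43 in P114 and 9.02 in CMT-U309), so the place of PCNA in the order of the lines depends on the probe.

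The cyclins held calls in both directions. CCNE2, a G1/S cyclin, measured 10.65 and 10.68 in CMT-U27, 8.72 and 8.83 in P114 and 8.46 and 8.20 in CMT-U309, which put CMT-U27 at 3.7-fold P114 (adjusted p = 9.52e-05) and 5.05-fold CMT-U309 (adjusted p = 3.84e-05). CCNA2, the S-phase and G2 cyclin, was 2.51-fold and 2.71-fold higher in CMT-U27 (adjusted p = 0.00106 and 0.000434). CCNB3 was 2.48-fold and 4.06-fold higher there (adjusted p = 0.00539 and 0.000433).

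CCND2, a D-type cyclin of G1, went the other way. It measured 7.91 and 7.85 in CMT-U27, 10.75 and 10.67 in P114 and 11.84 and 11.38 in CMT-U309. CMT-U27 lay 7.10-fold below P114 (adjusted p = 4.63e-06) and 13.3-fold below CMT-U309 (adjusted p = 5.37e-07), the widest separation of any bright member. Another D-type cyclin, CCND1, was brightest in CMT-U27, at 13.36 and 13.08, and was called there only against CMT-U309 (2.12-fold, adjusted p = 0.0157). The main probe of CCND3 was 1.62-fold higher in CMT-U27 than in P114 (adjusted p = 0.0395), and its second probe had the opposite sign and was not called. CCNE1 was lower in CMT-U27 than in CMT-U309 (1.71-fold, adjusted p = 0.0170), opposite to CCNE2.

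Of the 4 cell cycle CDKs, CDK1, the mitotic kinase, was called in 1 pair, 1.71-fold higher in CMT-U27 than in CMT-U309 (adjusted p = 0.0247), and CDK2, CDK3 and CDK6 in none. E2F8, a repressor of the E2F family, measured 8.85 and 8.66 in CMT-U27, 7.37 and 7.49 in P114 and 6.78 and 6.29 in CMT-U309, and all 3 pairs were called (CMT-U27 4.67-fold over CMT-U309, adjusted p = 0.000158). E2F1, the activator, was called in no pair. Among the mitotic genes, BUB1B of the spindle checkpoint was higher in CMT-U27 than in P114 (2.59-fold, adjusted p = 0.000559) and CMT-U309 (1.96-fold, adjusted p = 0.00342), and CDC25C likewise (2.58-fold and 2.38-fold, adjusted p = 0.00785 and 0.00566). PLK1 was called in no pair, with mean levels of 11.13 in CMT-U27, 11.01 in P114 and 10.72 in CMT-U309. PLK2, a stress-induced relative of PLK1, had levels of 9.76 and 9.19 in CMT-U27 and of 7.14 and 6.64 in CMT-U309, with a mean of 7.91 in P114, and all 3 pairs were called (CMT-U27 5.98-fold over CMT-U309, adjusted p = 5.28e-05). CENPA, the histone variant of the centromere, was by contrast highest in CMT-U309, at 10.84 and 10.99, above P114 (2.22-fold, adjusted p = 0.0185) and CMT-U27 (1.87-fold, adjusted p = 0.0283).

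A group of 20 genes shares the CDC and CDK names but acts mostly outside the cycle, in transcription, splicing or protein folding. Its median difference was 0.04 for CMT-U27 minus P114 and 0.06 for CMT-U27 minus CMT-U309, near the medians of all genes (-0.04 and 0.08). CDK14, a membrane-associated kinase linked to Wnt signaling, was its extreme. It measured 8.42 and 8.78 in CMT-U27, 11.56 and 11.82 in P114 and 11.57 and 11.75 in CMT-U309, so that CMT-U27 lay 8.49-fold below P114 (adjusted p = 4.71e-06) and 8.31-fold below CMT-U309 (adjusted p = 3.83e-06).

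**Figure D3:**
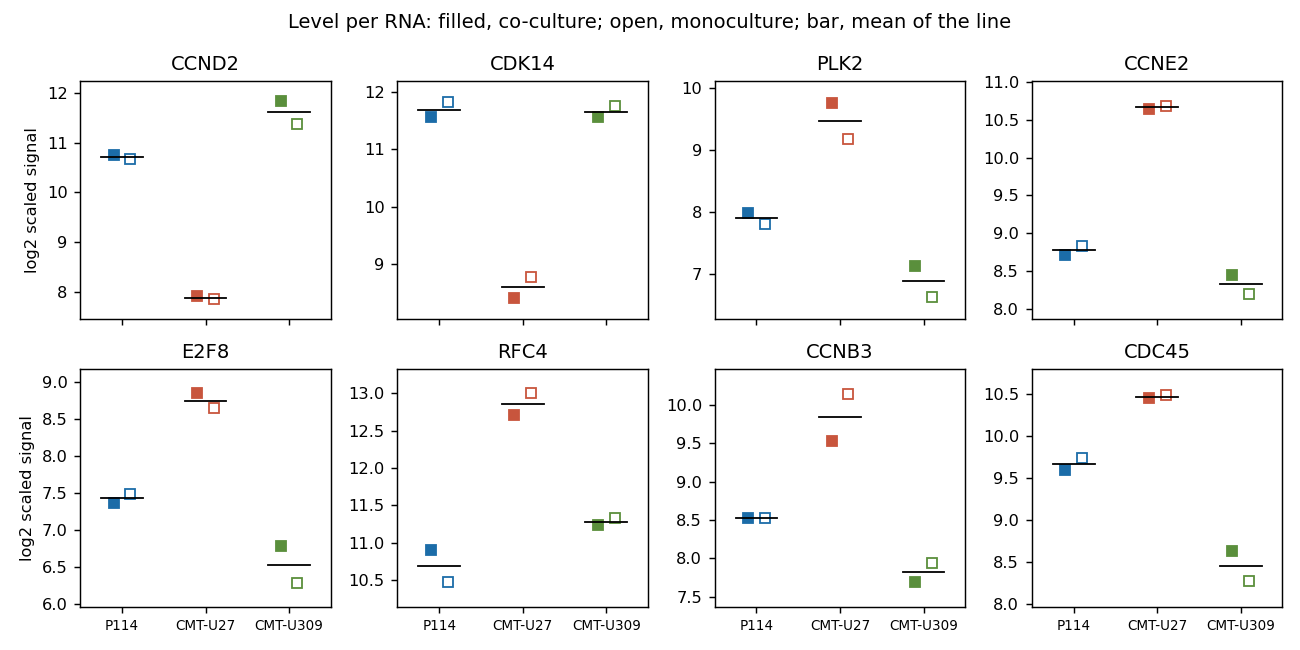
Level (log2 scaled signal, mean of both dyes) of the 8 bright member genes with the widest range between lines, in co-culture RNA (filled) and monoculture RNA (open) of each cell line, with the mean of the line as a bar. CCND2 and CDK14 are lowest in CMT-U27 and the 6 others highest there. The y axes differ between panels and do not start at 0.

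Genes of the same pathways that the symbol rule did not take showed similar medians. In 90 genes of DNA polymerases and fork proteins, nucleotide supply, RB partners, CDK inhibitors, spindle and damage response, the median difference was 0.60 for CMT-U27 minus P114 and 0.81 for CMT-U27 minus CMT-U309. Of the 89 tested, 33 and 52 were called higher in CMT-U27 (background 17.2% and 21%) and 5 and 4 lower (background 10.6% and 12.5%). The 19 genes of DNA polymerases, primase and fork had 13 called higher in CMT-U27 than in CMT-U309 and 1 lower.

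Of the 30 genes with several probes fitted, 24 kept 1 sign over their probes for P114 against CMT-U27, and 22 for each of the other pairs. The number of calls depended on the scaling between arrays. Without it the median of all genes lay at 0.43 for CMT-U27 minus P114 and at -0.23 for CMT-U27 minus CMT-U309. In that setting 1 and 0 member genes were called higher in CMT-U27. The member medians lay 0.52 and 0.48 above those of all genes both with and without scaling. That distance could not change, since scaling multiplies each channel by 1 factor. Leaving out the first array of CMT-U27 lowered the 30 and 36 calls to 11 and 17, and a fit without the trend in intensity lowered them to 6 and 12. The shares of all genes called under these settings and without scaling are not given here. These counts alone therefore show no change particular to the members. Relative to the median of all genes, the member median lay between 0.20 and 0.55 for CMT-U27 minus P114 over the alternatives, and between 0.17 and 0.54 for CMT-U27 minus CMT-U309. The lowest values, 0.20 and 0.17, came with another background correction and normalization (normexp, loess and Aquantile). Some alternatives could not move this median by their design. They were the fits without scaling or trend, with both dyes averaged, and with terms for array number and dye.

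Few of these genes passed a threshold in co-culture with MDSCs. Under the study's criteria (p under 0.05 before adjustment, with more than a 2-fold change, in the mean of 3 lines) no member gene was called higher or lower (background 0.569% of all genes higher and 0.164% lower). At an unadjusted p under 0.05 alone, 9 member genes were higher in co-culture (9.28%, against 5.7% of all genes) and 5 lower (5.15%, against 3.68%). Of these, 2 of the higher and 3 of the lower belong to the 20 genes that act mostly outside the cycle. The smallest adjusted p of a member was 0.498 (limma, n = 3 lines), shared by all 14, so none of these differences passed correction over all 40881 probes, of which none did either. The median log2 ratio of the 97 genes was 0.04, against 0.00 in all genes. Without CMT-U27 the counts were 2 higher and 1 lower, and without CMT-U309 1 and 1. The shares of all genes in these fits are not given here, so the lower counts cannot be read as particular to the members. By line the median was -0.03 in CMT-U27, 0.15 in CMT-U309 and 0.03 in P114, each from 1 dye-swap and with no test. Of the 31 genes with several tested probes, 14 kept 1 sign of the mean ratio over their probes. In all 5 genes were higher on 6 of 6 arrays (background 2.69%), namely CCNA2, CDK13, CDK20, MCM5 and PLK2, and CHEK2 alone was lower on all (background 1.95%).

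Of the mitotic regulators, PLK1 had log2 ratios of 0.93 and 0.59 on the arrays of CMT-U27, with co-culture RNA in Cy5 and in Cy3. They were 0.73 and 0.83 in CMT-U309 and 0.01 and -0.01 in P114. The gene was thus higher on all 4 arrays of CMT-U27 and CMT-U309 and level on both arrays of P114, with a mean of 0.52 ± 0.44 (SD, n = 3 lines, 1.43-fold). Without P114 the mean was 0.77.

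CDC20, the activator of the anaphase-promoting complex, followed the same order. Its log2 ratios were 0.66 and 0.31 in CMT-U27, -0.09 and 0.05 in P114 and 0.95 and 0.86 in CMT-U309, with a mean of 0.46 ± 0.46 (SD, n = 3 lines) and 0.69 without P114. CDC25B, the phosphatase that opens mitosis, gave 0.84 and 1.42 in CMT-U27, -0.69 and 0.30 in P114 and 0.69 and 1.34 in CMT-U309. In all 3 lines the array with co-culture RNA in Cy3 gave the higher value, and in P114 the sign changed with the dye. The CDC25B mean of 0.65 ± 0.74 (SD, n = 3 lines, 1.57-fold) was the largest of the bright members and was 1.07 without P114. AURKB and BUB1B had means of 0.04 and 0.07 and did not pass.

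Among replication genes, MCM5 was higher on all 6 arrays. Its log2 ratios were 0.43 and 0.36 in CMT-U27, 0.14 and 0.14 in P114 and 0.36 and 0.27 in CMT-U309, with a mean of 0.28 ± 0.13 (SD, n = 3 lines, 1.22-fold), which was 0.35 without P114. The other helicase subunits among the core genes did not pass the threshold. Their means were -0.03 for MCM2, 0.22 for MCM3, -0.12 for MCM6 and 0.13 for MCM7. ORC5, a subunit of the origin recognition complex, had a mean of 0.35, with -0.15 and 0.41 in P114, and 0.46 without that line. RFC3, a small clamp loader subunit, was lower, at -0.82 and -0.62 in CMT-U27, 0.02 and -0.27 in P114 and -0.55 and 0.02 in CMT-U309, with a mean of -0.37 (-0.49 without P114). PCNA had a mean of -0.05, and CDC6 differed between its probes. Its main probe gave -0.69 and 0.41 in P114 and 0.44 to 0.72 on the other 4 arrays (mean 0.32), and its second probe -0.51 and -0.23 in CMT-U27 and 0.19 and 0.40 in CMT-U309 (mean -0.12 with P114).

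CCND1, which carries growth factor signals into G1, had log2 ratios of 0.77 and -0.23 in CMT-U27, 0.41 and 0.70 in P114 and 0.50 and 0.48 in CMT-U309, and had the smallest unadjusted p of the members (mean 0.44 ± 0.15, SD, n = 3 lines, and 0.38 without P114). It was higher on 5 of 6 arrays. The E and A cyclins and CDK1 did not pass, with means of 0.13 for CCNA2, -0.06 for CCNE1, 0.03 for CCNE2 and -0.12 for CDK1. PLK2 was higher on all 6 arrays, with a range from 0.13 to 0.72 and a mean of 0.42 (0.54 without P114). CDK20 and CDK16 had means of 0.47 and 0.39 (0.52 and 0.53 without P114). For CDK16 the array with co-culture RNA in Cy3 gave the higher value in every line.

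The genes with lower values included dim ones. CDC20B, CDK15 and CDK3 had means of -0.74, -0.73 and -0.56, but their main probes were well above background in 1, 2 and 4 of the 6 co-culture channels and in 5, 5 and 6 of the monoculture channels. CDK15 had log2 ratios of 1.97 and -1.66 on the arrays of P114, and CDC20B was between -0.97 and -2.18 where Cy3 carried the co-culture RNA and between -0.03 and 0.30 where Cy5 did. The Cy3 array gave the lower value in all 3 lines for CDC20B and CDK15 and in CMT-U27 and CMT-U309 for CDK3. Among bright genes, CDC26, a subunit of the anaphase-promoting complex, had a mean of -0.37 with -1.18 and -0.48 in CMT-U27, -0.20 and 0.42 in P114 and -0.46 and -0.30 in CMT-U309, and -0.61 without P114, and missed the threshold over the 3 lines. CCNB3, CDK14 and BUB3 followed with means of -0.29, -0.27 and -0.26, of which CDK14 passed the threshold (also -0.27 without P114). The CDK14 ratios were -0.64 and -0.07 in CMT-U27, -0.49 and -0.03 in P114 and -0.60 and 0.24 in CMT-U309. The Cy5 array thus gave the lower value in every line, and the part of the dye in this mean was not tested.

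**Figure D4:**
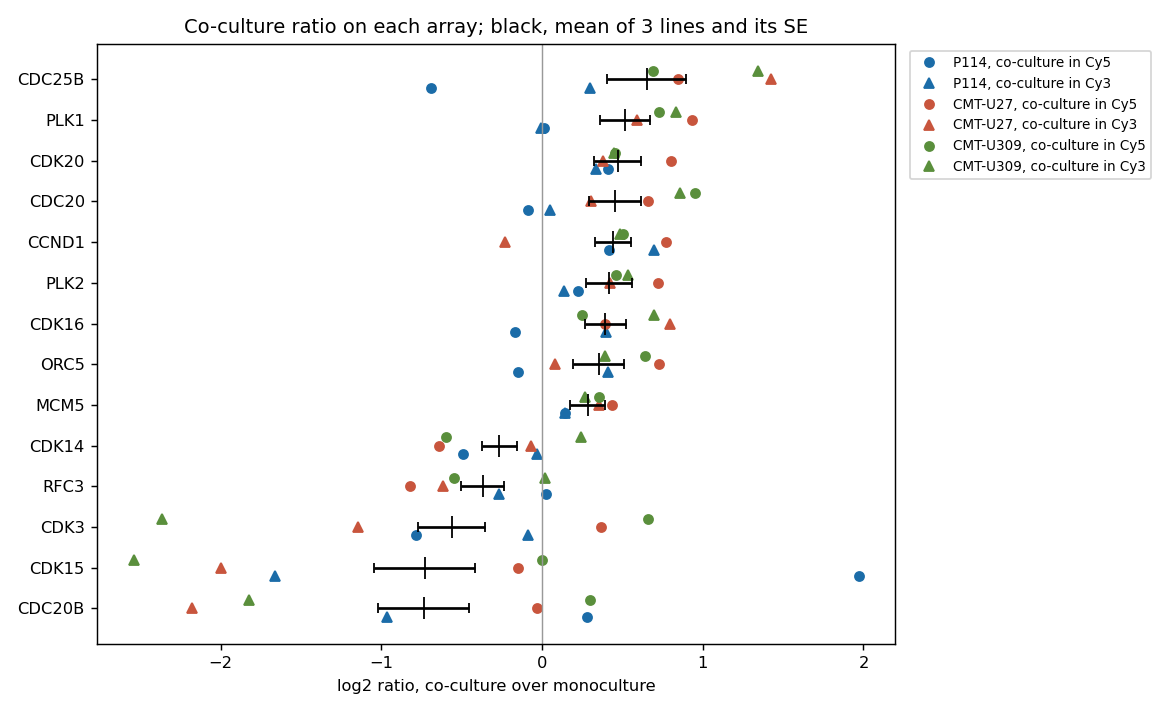
Log2 ratio of co-culture over monoculture on each of the 6 arrays (coloured by cell line, circles with co-culture RNA in Cy5 and triangles in Cy3) for the 14 member genes with an unadjusted limma p under 0.05, and the mean of 3 lines with its SE in black. The P114 points of PLK1 and CDC20 lie near 0 while all points of CMT-U27 and CMT-U309 lie above 0. The points of CDC20B, CDK15 and CDK14 separate by dye, and those of CDK16 are higher in Cy3 in every line.

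The ratios of CMT-U27 and CMT-U309 ran together. Their means over both dyes correlated at r = 0.742 over the member probes and at 0.583 over all probes. Those of P114 correlated with them at -0.22 and -0.171 over the member probes (descriptions across probes). Single arrays differed by dye. Over all probes, arrays with co-culture RNA in Cy3 correlated between lines at 0.466 to 0.612, P114 included, and those with it in Cy5 at -0.222 to 0.398. The part of the dye in the 0.742 was not tested. On all 4 arrays of CMT-U27 and CMT-U309, 27 member genes were higher (27.8%, against 20.3% of all genes) and 12 lower (12.4%, against 13.1%). Without P114, 26 member genes were higher at an unadjusted p under 0.05 (26.8%, against 18.5% of all genes) and 17 lower (17.5%, against 15.8%), in a fit with 2 lines. P114 was left out after its ratios were seen, so these counts are a description and no test. Besides PLK1, CDC20 and CDC25B, those higher included E2F1 and CDK2, each with a mean over both lines of 0.75. E2F1 had log2 ratios of 0.76 and 0.82 in CMT-U27 and 0.44 and 0.96 in CMT-U309, against -0.75 and 0.29 in P114. For CDK2 they were 0.14 and 1.43, 0.33 and 1.12, and -1.15 and 0.48. In both genes the P114 values changed sign with the dye. For E2F1 and CDK2 alike, the array with co-culture RNA in Cy3 gave the higher value in every line. The part of the dye in their means of 0.75 was not tested.

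Of the 90 related genes, 4 were higher in co-culture over the 3 lines (4.44%, background 5.7%) and 3 lower (3.33%, background 3.68%) at an unadjusted p under 0.05. PKMYT1, the membrane kinase that holds CDK1 inactive, had a mean log2 ratio of 0.60, with 0.99 and 0.80 in CMT-U27, -0.42 and 1.03 in P114 and 0.61 and 0.58 in CMT-U309. TOP1, which relaxes DNA ahead of the fork, had a mean of 0.46 and ANAPC10, a subunit of the anaphase-promoting complex, one of -0.46.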

How the data were processed

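The authors deposited the Feature Extraction 10.10.1.1 output of 6 two-colour arrays, with a processed signal intensity of each dye per spot (background-subtracted and dye-normalized), and a table of log10 ratios. The deposited log10 ratios differed from those of the scanner output by at most 4.997e-06 once turned to co-culture over monoculture, and their column medians were 0. Neither was scaled between arrays. Control and outlier spots were left out, all channels were brought to 1 median, and probes with a maximal scaled intensity of 10 or less were removed. Log2 ratios of a dye-swap were averaged per line, and the mean of 3 lines was tested with limma 3.58.1 in R 4.3.3 (intercept, eBayes with trend, Benjamini-Hochberg adjustment over 40881 probes). Levels between lines were fitted with line and culture condition on the Cy5 and the Cy3 values separately (40704 probes), the difference printed is the mean of both fits and the p the larger one. The number of arrays limits the precision, and nothing states whether the RNAs of a line came from separate cultures.

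The symbol rule reads no measured value, but the members, their roles, the core list and the related list were chosen with earlier results of these data known. Named genes were the core members, those with an unadjusted p under 0.05 in co-culture (none passed the fold), the 5 largest mean ratios in each direction and the 8 widest ranges between lines among bright main probes, and 3 related genes. Other genes were named after their values were seen. The alternatives are given at the end.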

Additional observations from a re-analysis of the deposited data

Results flagged for a closer look

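In 13 of 42 named genes (31%) both arrays of 1 cell line were higher in co-culture and both arrays of another were lower. The share was 36.1% (35 genes) over all 97 members and 24.8% over all genes. Differences between such lines were not tested, since each line has 1 dye-swap. The difference in log2 ratio between P114 and CMT-U27, positive in P114, was 0.66 for MCM6, 0.53 for CDC7, 0.71 for RFC4 and 0.41 for CDC25C. Between CMT-U309 and CMT-U27, positive in CMT-U309, it was 0.43 for GINS2, 0.30 for CCNE2, 0.58 for AURKB, 0.24 for BUB1B and 0.40 for CHEK1. Between CMT-U309 and P114, positive in CMT-U309, it was 0.27 for CCNE1, 0.63 for CDK6, 1.02 for CDC25A and 0.50 for CDC45, of which CDC25A was not well above background in every channel. Second probes differed for MCM6 (-0.12 and 0.03 in CMT-U27, 0.15 and -0.31 in P114) and AURKB (0.60 and 0.04 in CMT-U27). The second probe of MCM6 was above 0 on both CMT-U309 arrays (0.31 and 0.21). The median of the 97 genes was likewise below 0 on both arrays of CMT-U27 and above 0 on both of CMT-U309, a difference of 0.18. Medians of all genes were 0.043 and 0.003 in CMT-U27 and 0.029 and 0.074 in CMT-U309. Among all genes well above background in 12 channels they had the signs of the members, at -0.013 and -0.002 in CMT-U27 and 0.020 and 0.092 in CMT-U309. In P114 the dye-swap arrays did not run together, which touches the 8 differences that involve it.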

How the results depend on the processing

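The count of 9 member genes higher in co-culture became 4 with the methods' t-test (0 past its fold threshold and 0 after Benjamini-Hochberg adjustment) and 3 with eBayes without trend, and the count of 5 lower became 2 and 3, 3 with normexp and loess, and 2 among probes well above background in all 12 channels. Leaving out 1 line gave between 1 and 26 genes higher and between 1 and 17 lower, the most without P114. Without 1 array there were 7 to 15 higher (15 without the first P114 array) and 3 to 5 lower. The sign of CDK3 turned with normexp and loess (0.0087). The numbers 1 and 2 of the arrays mark the dye, and arrays of 1 number correlated across lines at -0.222 to 0.398 (Cy5) and 0.466 to 0.612 (Cy3), so not every correlation was over 0.1 and the numbers were not taken as pairing samples. With the number as a replicate block, 11 genes were higher and 7 lower in co-culture, and without it over the 6 arrays 10 and 3. For the lines the replicate block gave 49 genes higher in CMT-U27 than in P114, 56 higher than in CMT-U309 and 41 called between P114 and CMT-U309. The main counts were 30, 36 and 10. They became 18, 21 and 6 with normexp, loess and Aquantile, 1, 0 and 0 without scaling, 6, 12 and 0 without trend, and 46, 46 and 22 in the Cy5 values alone. Averaging both dyes gave 30 genes between P114 and CMT-U309. Without 1 array the counts ranged from 11 to 26, from 17 to 45 and from 1 to 11, lowest without an array of CMT-U27, or of CMT-U309 for the last. The shares of all genes called under these alternatives are not given, apart from the fit without P114 (18.5% higher and 15.8% lower in co-culture). The member counts alone therefore show how calls depend on the processing and nothing particular to the members. The causes were not tested. With 1 pair of RNAs per line, no line has a co-culture test of its own.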
